A study of Homo sapiens with 12 samples.

Results

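AlkAniline-Seq libraries were compared with input libraries in control LNCaP-AI cells, 3 against 3, which makes 6 of the 12 samples of the series. They were chosen by their labels, as the samples of cells with shscramble, and no value of cells with shMETTL1 enters a result. LNCaP is an androgen-responsive line from a human prostate cancer, and LNCaP-AI is its derivative that grows without androgen, labelled as castration-resistant prostate cancer. All 6 samples carried the shscramble hairpin, were labelled with Androgen Deprivation Therapy and came from total RNA according to the labels. The AlkAniline-Seq libraries and the inputs carry the same replicate numbers 1, 2 and 3. Nothing in the labels says that the replicates were separate cultures, so p-values measure the spread between these samples, which may be technical. The question of the comparison is which positions and genes stood out from input in cells whose METTL1 was not knocked down.

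N7-methylguanosine, m7G, is the base of the mRNA cap and also occurs inside tRNA, rRNA and mRNA. METTL1 with its partner WDR4 writes it in tRNA, and the study of these cells proposes that METTL1 also writes it inside mRNA. The m7G of rRNA has another writer. In AlkAniline-Seq the m7G base is lost under alkaline heating, aniline then cuts the chain at the bare sugar, and the new end is ligated and sequenced, so reads should pile up next to modified bases. An input is meant to show where reads pile up without this enrichment, such as at natural RNA ends and break points. No source used here says which chemical steps the input RNA went through, or whether a count is of reads that start at the position, so a high share is not taken here as a cut.

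The files hold 842183 positions in 18569 Ensembl gene IDs, of which 450700 positions and 17611 IDs had a read in at least 1 of the 6 libraries. Each position has a count of reads at it, a coverage (the reads that pass over it, including those counted) and a share, the count divided by the coverage. AlkAniline-Seq counts summed to 1730427, 2624431 and 1421551 in replicates 1, 2 and 3, and input counts to 3152800, 3077656 and 3045523. All 3 inputs were deeper than every AlkAniline-Seq library. The positions carry no genome coordinate and the IDs no gene name. Names were available for 115 genes of a list that the study had chosen on fold values from these libraries and those of knockdown cells, so they are not a random sample of the genes and their direction is no independent evidence.

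Before any comparison, AlkAniline-Seq replicate 1 stood apart. Of the 16371 positions with at least 50 reads in replicate 2, 99.9% also had a read in replicate 1, and of the 8624 such positions in replicate 3, 100% did. By contrast, 39.1% of the deep positions of replicate 2 were found in replicate 3, and 51.2% of those of replicate 3 in replicate 2. The overlap held even where replicates 2 and 3 had nothing in common. At 9964 positions with at least 50 reads in replicate 2 and none in replicate 3, replicate 1 lacked a read at 9, and its count was a median of 10.6% of that of replicate 2 (5th to 95th percentile 4.84% to 24.8%). At 4210 positions with at least 50 reads in replicate 3 and none in replicate 2, replicate 1 had a read at every one, at a median of 14.7% (7.41% to 26.6%). At these percents, reads like those of replicates 2 and 3 would make up 28.1% of replicate 1. Replicate 1 also had 1825 positions with at least 50 reads that neither of the others had. Between inputs, 56.6% to 73.9% of the deep positions of one were found in another. The cause was not tested, and many of the counts and differences below, but not all, are given with and without this library.

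**Figure D1:**
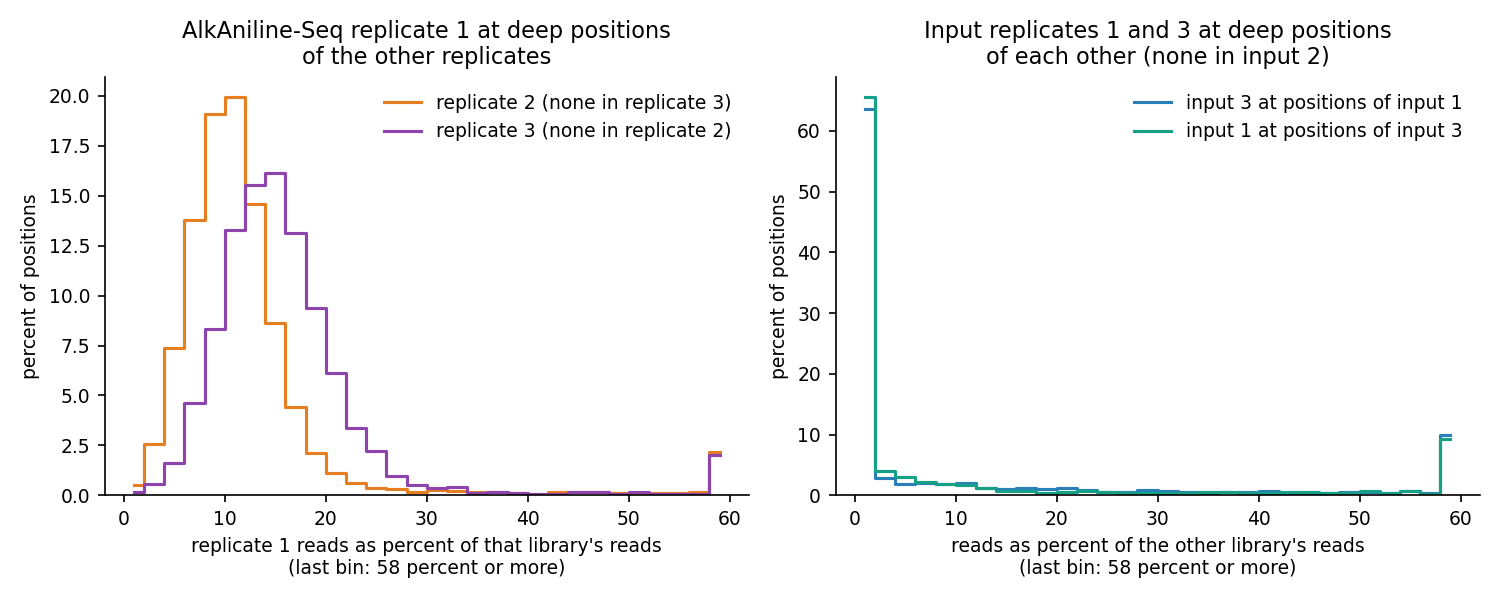
Left, at positions with at least 50 reads in AlkAniline-Seq replicate 2 or 3 and none in the other, the reads of replicate 1 as a percent of that library's reads (x axis) against the percent of positions (y axis). The counts of replicate 1 centre on 10.6% and 14.7%, while inputs 1 and 3 at each other's deep positions without a read in input 2 (right) have most positions in the lowest bin. The last bin holds all higher percents.

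Input replicate 2 stood apart in another way. A read was found at 72098 positions, against 158448 and 154432 in inputs 1 and 3, and 57.7% of its read positions had a single read, against 32.0% and 30.7%. Input 2 detected 13120 gene IDs with at least 1 read, the other inputs 14893 and 15117, and the AlkAniline-Seq libraries 15066, 14613 and 13888. At 1421551 reads, the total of the smallest library, the expected number of read positions was 155169, 94016.5 and 86641 in AlkAniline-Seq and 122127, 47483 and 123273 in input. The 2 kinds of library overlapped in both measures (exact two-sided permutation test, p = 0.9 for IDs and p = 0.7 for positions). Without AlkAniline-Seq replicate 1, the difference of the means, AlkAniline-Seq minus input, turned from 146 to -126 IDs and from 14315 to -7299 positions, and without input 2 it was -483 IDs and -10758 positions.

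Reads were less concentrated in AlkAniline-Seq than in input. The top 1% of read positions held 23.1%, 21.96% and 21.1% of all reads in AlkAniline-Seq replicates 1, 2 and 3 and 35.5%, 33.9% and 32.1% in the inputs. Means were 22.05% ± 1.01 (SD, n = 3) and 33.8% ± 1.72 (SD, n = 3), and every input lay above every AlkAniline-Seq library (exact two-sided permutation test, p = 0.1, the smallest that 3 against 3 allow, and 0.25 after Benjamini-Hochberg adjustment over the 5 library measures compared). Without AlkAniline-Seq replicate 1 the difference was -12.3 percentage points, and without both libraries of replicate 1 it was -11.5. The 100 highest positions of a library held 7.92%, 9.34% and 10.4% of reads in AlkAniline-Seq and 18.3%, 19.1% and 15.7% in input.

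Positions picked for being high in AlkAniline-Seq took a larger part of each input than of each AlkAniline-Seq library. The 100 highest positions of AlkAniline-Seq replicate 2, in 70 gene IDs, held 7.41% and 8.70% of the reads of the other AlkAniline-Seq libraries, 9.34% of its own, and 14.96%, 15.8% and 13.4% of those of inputs 1, 2 and 3. The 100 highest of AlkAniline-Seq replicate 3 held 10.4% of its own reads and 14.97%, 15.8% and 13.2% of the input reads. The 100 highest positions of input 1 held 18.2% and 15.4% of the reads of inputs 2 and 3 and 6.33%, 7.08% and 6.44% of those of AlkAniline-Seq.

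The leading position within a gene often differed between libraries. Over 2810 gene IDs with at least 50 reads in each library, AlkAniline-Seq replicates 2 and 3 had the same highest position in 15.8% of IDs. With AlkAniline-Seq replicate 1 the percents were 23.0 for replicate 2 and 20.6 for replicate 3. Inputs 1 and 3 had the same highest position in 36.3%, inputs 1 and 2 in 22.9% and inputs 2 and 3 in 23.0%, and pairs of an AlkAniline-Seq library with an input in 12.95% to 22.3%, so that AlkAniline-Seq replicates 2 and 3 lay within the range of these mixed pairs. The median percent of an ID's reads at its highest position was 26.3, 31.4 and 38.7 in AlkAniline-Seq and 28.6, 60.4 and 27.4 in input, where input 2 was far above the other inputs. These groups overlapped (exact permutation test, p = 0.8), and the difference of the means was -6.65 percentage points, -3.58 without AlkAniline-Seq replicate 1 and 5.47 without input 2.

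**Figure D2:**
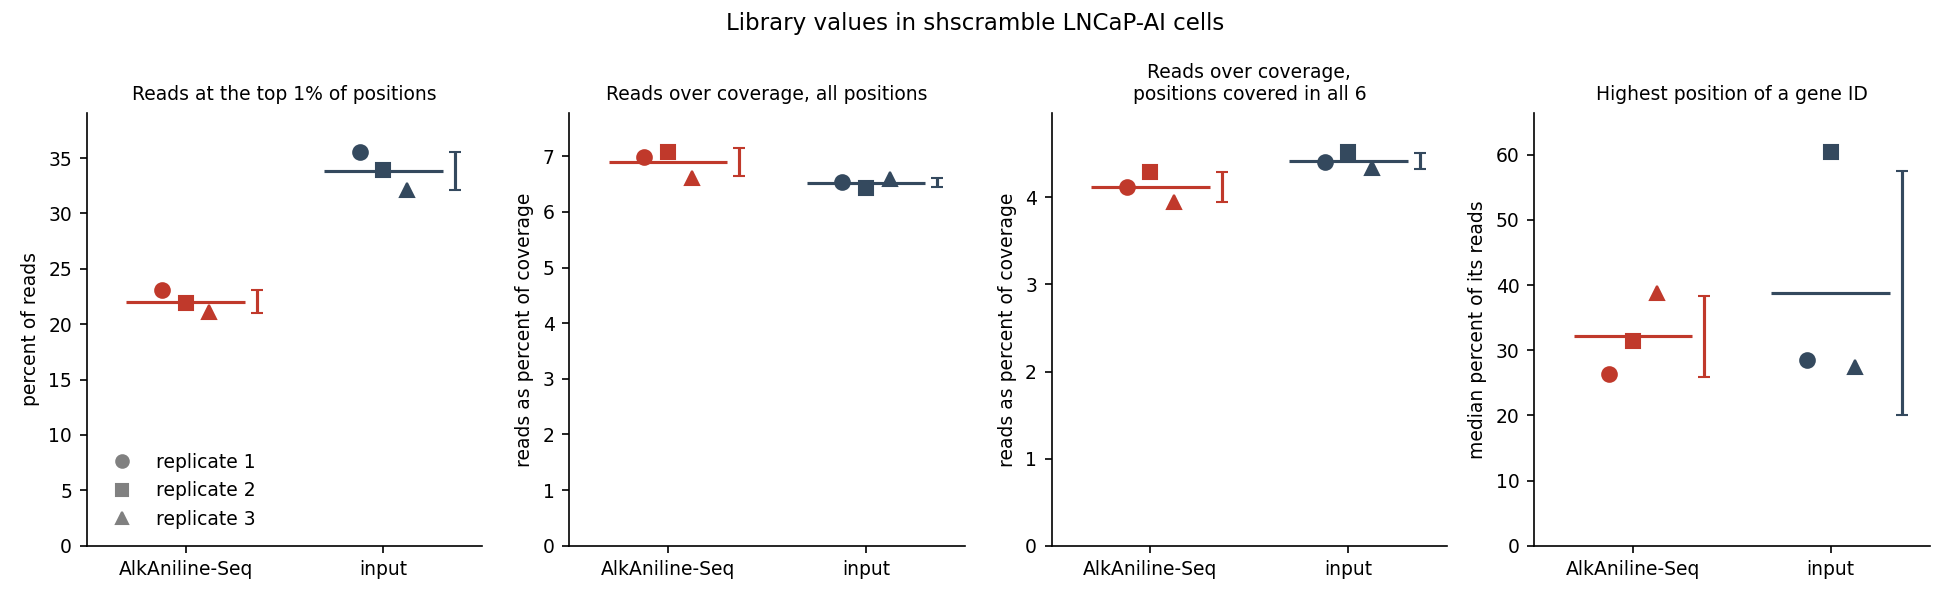
Library values of AlkAniline-Seq (red) and input (blue), with a marker per replicate, the mean as a line and the SD (n = 3) as a bar; the y axes give percents of reads, of coverage or of a gene ID's reads. The top 1% of positions held 21.1% to 23.1% of reads in AlkAniline-Seq and 32.1% to 35.5% in input, and the order of reads over coverage differed between all positions and those covered in all 6 libraries.

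The count as a percent of coverage depended on the positions used. Over all positions it was 6.995%, 7.07% and 6.61% in AlkAniline-Seq and 6.55%, 6.43% and 6.60% in input, so that AlkAniline-Seq was above input by 0.36 percentage points, and by 0.31 without AlkAniline-Seq replicate 1 (all 6 libraries, exact permutation test, p = 0.1). Over the 54220 positions with a coverage of at least 10 in all 6 libraries, which lie in 4658 gene IDs, it was 4.12%, 4.29% and 3.95% in AlkAniline-Seq and 4.41%, 4.52% and 4.34% in input. There every AlkAniline-Seq library was below every input, by 0.30 percentage points in the mean (exact permutation test, p = 0.1). These common positions held 41.7% to 43.9% of the AlkAniline-Seq reads and 50.6% to 59.4% of the input reads. The comparison over common positions was added after the data were seen.

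Single positions with a high share in one kind of library and a low share in the other were rare, and their counts changed with the libraries left out. Of the 54220 common positions, 6 had a share of at least 50% in all 3 AlkAniline-Seq libraries and at most 10% in all 3 inputs, and 15 had the reverse, a pair of them with equal values in overlapping gene IDs. At a coverage of at least 50 these counts were 0 and 1. The 6 positions had shares of 50% to 100% in AlkAniline-Seq, on a coverage of 17 to 190, and of 0% to 7.69% in input, on a coverage of 10 to 256. By comparison, 223 positions had a share of at least 50% in all 6 libraries. Every AlkAniline-Seq share was above every input share at 1761 positions, which is 3.25% of those compared, and below every input share at 1762 (3.25%). Without AlkAniline-Seq replicate 1, the counts at 50% against 10% were 27 high in AlkAniline-Seq and 29 high in input. They leaned to AlkAniline-Seq without its replicate 2 (71 and 31) or 3 (89 and 31). They leaned to input without input 1 (12 and 67), input 2 (35 and 130) or input 3 (11 and 66), and without both libraries of replicate 1 (49 and 110). Leaving out a library of one kind eases the demand for a high share in every library of that kind. The direction of these leans was thus partly set by the rule. These counts carry no test.

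One of the 15 positions high in input belonged to a named gene, B4GALT2, which encodes a galactosyltransferase of the Golgi (named because it was the only one with a name, after its values were seen). In inputs 1, 2 and 3, 188 of 212, 134 of 134 and 23 of 25 covering reads lay at this position. In AlkAniline-Seq replicates 1, 2 and 3 it took 1 of 18, 2 of 65 and 2 of 82. Over the whole gene, the log2 fold change of AlkAniline-Seq over input was 0.17 ± 0.76 (SE) (edgeR quasi-likelihood test, adjusted p = 0.96), a value that turned to -0.18 without AlkAniline-Seq replicate 2. The position was picked by these shares, so their difference is no separate result. In the test of shares below, 0 positions were called lower in AlkAniline-Seq, so neither the position nor the gene's reads gave a call.

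When counts against coverage were tested at 27085 positions, 9 were called with a higher share in AlkAniline-Seq (edgeR quasi-likelihood test, Benjamini-Hochberg adjusted p under 0.05, 0.0332% of those tested) and 0 with a lower one (0%). At an unadjusted p under 0.05, 1030 were higher and 374 lower. The 9 calls were 8 distinct sets of values, since 2 overlapping gene IDs share 1 position. All were very deeply covered positions with few reads. The AlkAniline-Seq libraries together had 20 to 278 reads there, a share of 0.0345% to 2.36%, while the inputs had 18784 to 314476 covering reads and no read at the position in 8 of the 9. Against a floor of 3 counts over the inputs, the share at these 8 was at least 32.5-fold to at least 121-fold higher in AlkAniline-Seq. Bounds and floor cover counting error only. The reads were uneven between AlkAniline-Seq libraries, so a bound can rest largely on 1 library. In replicates 1, 2 and 3, the position with the highest bound had 15, 106 and 5 reads. Others had 3, 30 and 0, or 24, 19 and 1, or 4, 13 and 60. No called position lay in a named gene. With a coverage minimum of 20, with limma, without input 2, without input 3 or without both libraries of replicate 1, 0 positions were called (1108, 1954, 1338, 912 and 178 at an unadjusted p under 0.05). Without AlkAniline-Seq replicate 1, 2 or 3 the counts were 1, 4 and 17, and without input 1 the count was 2. The limma test was run after adding 0.01 to each share, which flattens differences between shares as low as most of those called. Its count of 0 is thus a weak check of these calls.

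The authors' own measure, the fold of the share over the share in the input of the same number, was above 1.5 at 87883, 68717 and 52225 positions in replicates 1, 2 and 3. In the files this fold is the ratio of the shares where the input has a read, and the share plus 1 where it has none. In replicates 1, 2 and 3, the input had no read at 82.4%, 90.0% and 82.2% of the positions above 1.5, and not even coverage at 63.4%, 76.6% and 60.6%. A single AlkAniline-Seq read gave the fold at 34.0%, 35.6% and 37.7%. Few positions recurred: 127196 passed in 1 replicate, 37057 in 2 and 2505, in 2071 gene IDs, in all 3. Replicates 2 and 3, compared without regard to replicate 1, shared 4812, of which 2505 also passed in replicate 1. Of the 2505, 533 had a coverage of at least 10 in all 6 libraries. The same rule with input over AlkAniline-Seq passed 1930 positions in all 3 replicates, 733 of them with that coverage. With the coverage minimum, positions above input in all 3 replicates were thus fewer than positions below it by the same rule. In single replicates 1, 2 and 3, without a coverage minimum, the reverse rule passed 86485, 45088 and 87529 positions, so the order differed between replicates. The inputs were deeper, and what this did to the counts was not tested.

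Summed per gene, AlkAniline-Seq and input counts were correlated. Across 11278 tested gene IDs the Pearson correlation of log2(CPM + 1) was 0.56 between AlkAniline-Seq replicates 2 and 3, and 0.74 and 0.70 between replicate 1 and these. It was 0.76 between inputs 1 and 3, 0.62 between inputs 1 and 2 and 0.61 between inputs 2 and 3. Pairs of an AlkAniline-Seq library with an input had 0.50 to 0.71. These are correlations across genes, which are not independent replicates, and CPM here are read counts divided by the library total, scaled by TMM, and set to a common total. The edgeR quasi-likelihood test called 15 gene IDs higher in AlkAniline-Seq (0.133% of those tested) and 53 lower (0.47%) at an adjusted p under 0.05. The coefficient of variation between replicates was 0.88. Every AlkAniline-Seq CPM was above every input CPM in 1007 IDs (8.93%) and below in 1035 (9.18%). The lean of the calls towards input depended on the scaling and tool: it was 26 higher and 39 lower with library size alone, which raised the median log2 fold change of all genes by 0.34, 126 and 190 with DESeq2, and 3 and 6 with DESeq2 size factors in edgeR. Without AlkAniline-Seq replicate 1 the test called 15 higher and 23 lower, without both libraries of replicate 1 it called 12 and 44, without AlkAniline-Seq replicate 3 it called 5 and 19, and without input 3 it called 18 and 147.

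Single positions held a large part of the reads of called IDs. Among the 53 IDs called lower, a median of 68.5% of input reads and 41.4% of AlkAniline-Seq reads lay at the position with most reads over the 6 libraries, against 26.1% and 16.9% over all IDs tested. Among the 15 called higher the medians were 42.1% in input and 53.4% in AlkAniline-Seq. The position was picked by unscaled reads summed over the 6 libraries, and the inputs were deeper, so the pick leans to positions high in input. In IDs called lower and over all IDs, the higher percent in input is thus partly set by the rule. When that position was left out of each ID, 0 of 9948 IDs were called (edgeR, 826 at an unadjusted p under 0.05). The median log2 fold change of the called IDs then moved from -2.12 to -1.78 among those called lower, with 49 of the 51 still tested below 0, and from 2.35 to 1.45 among those called higher, with 14 of 14 above 0. Of 77 positions called by reads (8 higher, 0.0505% of 15832 tested, and 69 lower, 0.436%), 48 lay in an ID called in the same direction. Without AlkAniline-Seq replicate 1 the test called 11 positions higher and 39 lower. The lean towards input was reversed with library size alone, which called 50 positions higher and 29 lower, and with DESeq2, which called 894 and 550.

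The largest rises among called IDs were 2 gene IDs without a name in the tables used here. ENSG00000110777 had 799, 223 and 5500 reads in AlkAniline-Seq replicates 1, 2 and 3 and 20, 15 and 19 in the inputs. Its log2 fold change was 7.65 ± 0.99 (SE) (edgeR, adjusted p = 0.00039), and 1 position held 799, 223 and 5497 of the AlkAniline-Seq reads. Replicate 3 was far above the other AlkAniline-Seq libraries, and no library of one kind overlapped the other. Its log2 fold change was 5.204 without AlkAniline-Seq replicate 3 and 8.09 without replicate 1, called in both cases. Leaving out replicate 3 is not a fully separate check, because replicate 1 stays in. At deep positions of replicate 3 that replicate 2 lacked, replicate 1 had a median of 14.7% of the reads of replicate 3. The share at the leading position of ENSG00000110777 was 100% in input and 99.98% in AlkAniline-Seq. It was thus the number of reads, and not the share of coverage, that differed. ENSG00000189108 had 938, 238 and 5836 reads in AlkAniline-Seq and 73, 49 and 111 in input, a log2 fold change of 5.69 ± 0.89 (SE) (edgeR, adjusted p = 0.0022). Without its highest position the value was 1.27, and without AlkAniline-Seq replicate 3 it was 3.36, neither called.

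The largest falls among called IDs were also unnamed. ENSG00000185615 had 1, 0 and 0 reads in AlkAniline-Seq and 99, 247 and 58 in input (edgeR, adjusted p = 0.043). On pooled reads and scaled library sizes the input rate was 321 times that of AlkAniline-Seq, with an exact 95% interval of 57.3 to 12702 that covers counting error only. Leaving out AlkAniline-Seq replicate 1, 2 or 3 or input 2, the replicate block, library size alone and DESeq2 size factors in edgeR each ended this call (edgeR, adjusted p = 0.135 without AlkAniline-Seq replicate 1). ENSG00000180530 had 8, 1 and 0 reads against 260, 418 and 91, a log2 fold change of -6.22 ± 1.38 (SE) (edgeR, adjusted p = 0.039), and 417 of the 418 reads of input 2 lay at 1 position. It was not called without AlkAniline-Seq replicate 2, replicate 3 or input 2, with library size alone or with DESeq2 size factors in edgeR. Summed coverage ended both calls.

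Among the 115 named genes, 3 were called, all lower in AlkAniline-Seq, and 0 were called higher, against 0.47% lower and 0.133% higher over all IDs tested. At these shares a list of a few genes would mostly hold no call, so a count of 0 in the short lists below says nothing about the list. By sign alone 54 were above 0 and 61 below, with a median log2 fold change of -0.06, against -0.03 over all IDs tested. SLC7A5 encodes the light chain of the large neutral amino acid transporter LAT1. It had 6716, 15708 and 7426 reads in AlkAniline-Seq and 23680, 57139 and 37238 in input. In CPM this was 4511 ± 1215 (SD, n = 3) against 16085 ± 11037 (SD, n = 3), and the groups did not overlap. Its log2 fold change was -1.83 ± 0.34 (SE) (edgeR, adjusted p = 0.011), and it stayed called without AlkAniline-Seq replicate 1 (adjusted p = 0.024) and without both libraries of replicate 1.

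A single position carried most SLC7A5 reads. It had 5159, 12100 and 5650 reads in AlkAniline-Seq and 20953, 51509 and 32757 in input, 76.7% and 89.1% of the gene's reads. Its share of coverage was 77.8% in AlkAniline-Seq and 91.0% in input, over the pooled libraries. Without it the log2 fold change was -1.46 (adjusted p = 0.64). The call was also lost with summed coverage, with DESeq2 and with its size factors in edgeR.

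MLST8 encodes a subunit of the mTOR complexes, the kinases that couple growth to amino acid supply. It had 594, 872 and 615 reads in AlkAniline-Seq and 6581, 2695 and 3168 in input, or 329 ± 64.2 against 1502 ± 577 CPM (SD, n = 3), with no overlap. Its log2 fold change was -2.19 ± 0.36 (SE) (edgeR, adjusted p = 0.0036). One position had 304, 374 and 292 reads against 5583, 1741 and 2537, and its share of coverage was 59.9% in AlkAniline-Seq and 87.7% in input. Without that position the value was -1.62, with no call, the call was lost with DESeq2 size factors in edgeR, and without both libraries of replicate 1 it was -1.73 (adjusted p = 0.22).

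OOEP, a gene known for its role in the oocyte and early embryo, had 9836, 17400 and 8560 reads in AlkAniline-Seq and 34838, 38744 and 32907 in input. Its log2 fold change was -1.34 ± 0.24 (SE) (edgeR, adjusted p = 0.010), and in CPM the groups did not overlap. A single position held 73.7% of its AlkAniline-Seq reads and 86.2% of its input reads. Without it the value was -1.11, with no call, and the call was also lost with summed coverage, DESeq2 and its size factors. Its share of coverage at that position was 47.4% in AlkAniline-Seq and 67.7% in input. At the highest positions of SLC7A5, MLST8 and OOEP the share was thus lower in AlkAniline-Seq in each case. The genes were picked by their lower counts and the positions by reads pooled over all libraries, so these lower shares are no separate result.

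**Figure D3:**
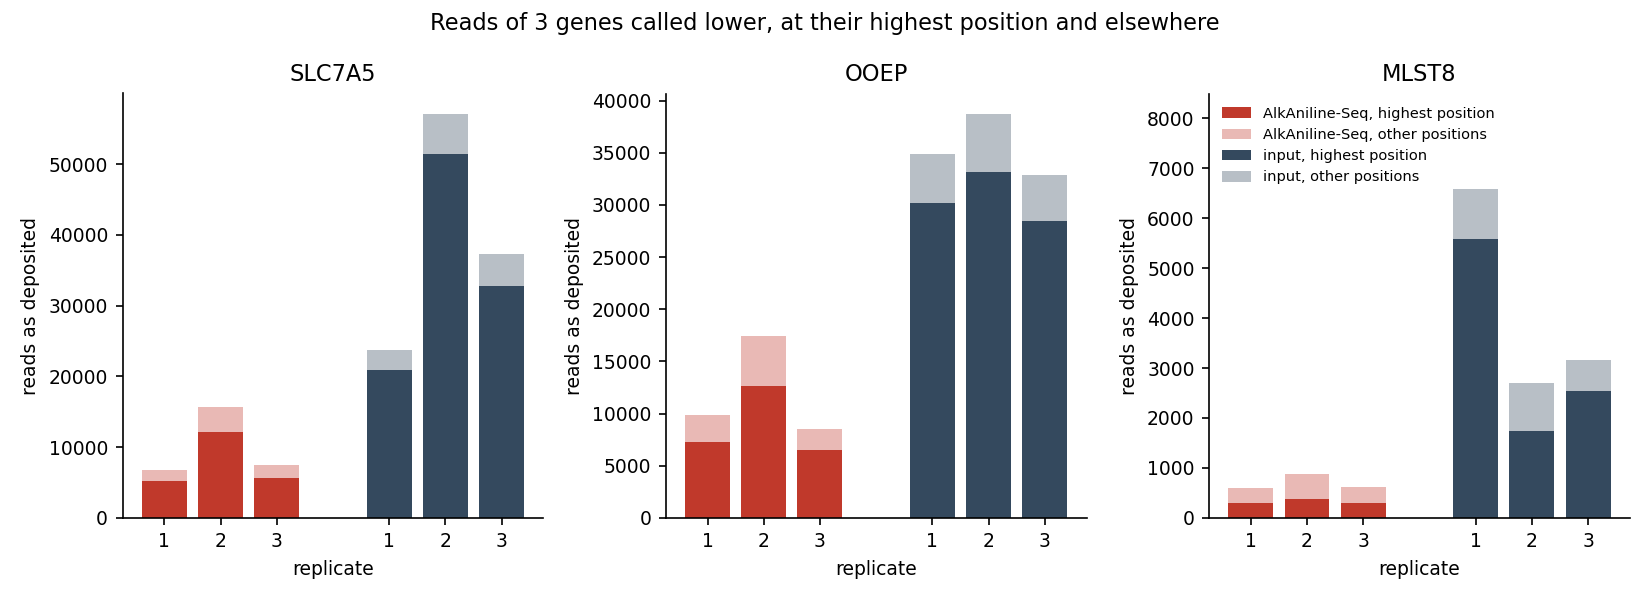
Deposited reads (y axis, from 0) of SLC7A5, OOEP and MLST8 in AlkAniline-Seq (red) and input (blue) replicates 1, 2 and 3 (x axis), at the gene's highest position (dark) and at all others (light). The highest position of SLC7A5 held 76.7% of its AlkAniline-Seq reads and 89.1% of its input reads.

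Of the 3 named genes of the androgen response, 0 were called. KLK2, an androgen-driven kallikrein and the only gene of the LNCaP marker list with a name here, had 542, 603 and 653 CPM in AlkAniline-Seq and 1446, 1772 and 832 in input. All 3 inputs were above all AlkAniline-Seq libraries, but its log2 fold change of -1.17 ± 0.34 (SE) was not called (edgeR, adjusted p = 0.15). It was called under 2 of 15 alternatives, with no filter (-1.19) and without input 3 (-1.50, the lowest adjusted p being 0.035). NDRG1, a stress gene that androgen also induces, had a log2 fold change of 1.46 ± 1.21 (SE), and PPAP2A, a lipid phosphatase, of -1.50 ± 0.75 (SE). Of the 798 reads of PPAP2A in input 2, 751 lay at 1 position, and without it the log2 fold change was 0.12. The list's median was -1.17 over 3 genes. The other LNCaP markers and those of basal, neuroendocrine, fibroblast, blood and immune cells were not analysed here for want of names.

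ATF4 switches on genes when amino acids run short, and its targets import and make amino acids. Of 8 with a name, 4 were above 0 and 4 below, with a median of -0.21, and SLC7A5 was the only call, against 0.47% called lower over all IDs. PSAT1, an enzyme of serine synthesis, had 176, 346 and 345 CPM in AlkAniline-Seq and 155, 32.5 and 111 in input. These groups did not overlap, and the log2 fold change was 1.54 ± 0.58 (SE) with no call (edgeR, adjusted p = 0.32). SLC3A2, the heavy chain that pairs with SLC7A5, had 368 ± 128 against 549 ± 74.5 CPM (SD, n = 3), and its groups overlapped. With summed coverage it was called lower, at -1.124 (edgeR, adjusted p = 0.028). PCK2, mitochondrial PEP carboxykinase, was lower in all 3 AlkAniline-Seq libraries at -1.003 ± 0.38 (SE), with no call (edgeR, adjusted p = 0.32). The transporters SLC1A5 and SLC7A11 had log2 fold changes of -0.84 ± 0.47 (SE) and 0.97 ± 0.97 (SE), neither called. In the aminoacyl-tRNA synthetases, which load amino acids onto tRNA and which ATF4 also drives, 0 of 3 were called. WARS, for tryptophan, had 326, 148 and 228 CPM in AlkAniline-Seq and 82.6, 104 and 125 in input, a log2 fold change of 1.17 ± 0.54 (SE) (edgeR, adjusted p = 0.47). GARS, for glycine, was at -0.22 ± 0.40 (SE), a sign that turned with library size alone (0.18).

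In sterol synthesis the median of 4 named genes was 0.22, with 0 called. SQLE, squalene epoxidase, had 99.3, 122 and 85.6 CPM against 20.8, 8.51 and 88.7, and its groups overlapped because of input 3. NSDHL, a sterol dehydrogenase, was at -0.12 ± 0.97 (SE), and at 0.44 with library size alone. The 4 named p53 targets had values of 0.00036 to 1.31 and a median of 0.88, and 0 were called. The lowest was GDF15, a stress cytokine, with 375, 424 and 681 CPM against 476, 533 and 470, a log2 fold change that was -0.13 with DESeq2. CDKN1A, the cell cycle inhibitor p21, had 152, 112 and 172 CPM against 73.5, 50.5 and 81.0 and did not overlap, yet its value of 1.09 ± 0.65 (SE) was not called. The highest was SESN2, a leucine sensor upstream of mTOR, with 23.1, 25.3 and 62.7 CPM against 32.2, 0.50 and 11.9. Input 2 was the lowest library for both SQLE and SESN2.

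Of 3 named mitosis genes 0 were called. PRC1, a bundler of spindle microtubules, had a log2 fold change of -0.79 ± 0.69 (SE), STMN1, a microtubule destabiliser, of -0.50 ± 0.45 (SE), and ANLN, a scaffold of the cleavage furrow, of 0.80 ± 1.13 (SE). ANLN varied among AlkAniline-Seq libraries from 5.88 to 108 CPM, a wider range than between the group means of 55.4 and 31.8. LIG1, the ligase of DNA replication and the only named gene of its list, was at -0.31 ± 1.12 (SE).

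**Figure D4:**
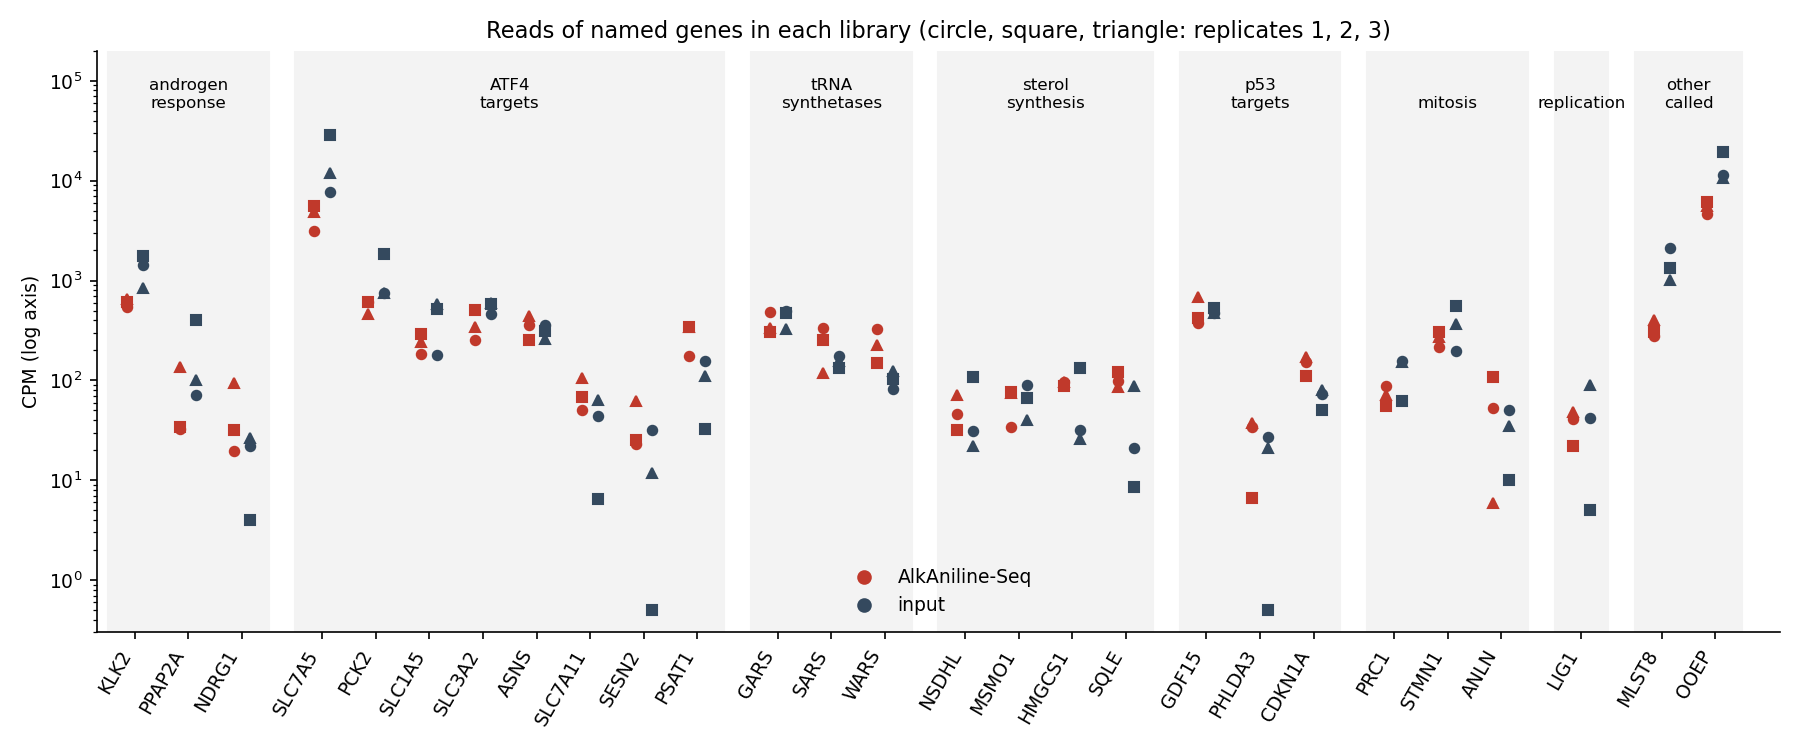
CPM after TMM scaling (log y axis) of the named list genes and of the called genes MLST8 and OOEP (x axis), in AlkAniline-Seq (red) and input (blue), with circles, squares and triangles for replicates 1, 2 and 3. SLC7A5, MLST8 and OOEP (called) and KLK2 and PCK2 (not called) lie lower in all 3 AlkAniline-Seq libraries, while PSAT1, WARS and CDKN1A lie higher in all 3 without a call.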

How the data were processed

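For AlkAniline-Seq and input of LNCaP-AI cells the authors deposited, per position, whole-number counts and coverage counts, a fraction (count over coverage) and a ratio (fold of that fraction over the input fraction). The processing notes of the submitters give cutadapt (1.9.1), Bowtie2 (2.2.4), bedtools (2.24) and hg19. Tool settings, read filters and gene annotation are not stated there. At 9.66% of positions with at least 10 reads, the values equalled those of a neighbouring position of another gene ID, so overlapping genes share reads.

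Deposited counts were summed per gene ID or used per position and tested by edgeR's quasi-likelihood test (edgeR 4.0.16, R 4.3.3) with TMM scaling, a minimum count of 10, a minimum total of 15 and Benjamini-Hochberg adjustment. An SE is the size of the log2 fold change over the root of F. Shares were tested as counts against the remaining coverage, with an intercept per library, at positions with a coverage of at least 10 in all 6 libraries and at least 15 reads in all. Library values were compared by exact two-sided permutation tests. DESeq2 1.42.0, limma 3.58.1 on log2(share + 0.01), other scalings, filters and coverage minimums, the replicate block and leaving out libraries were the alternatives. The tests were run on simulated data first. Counts there were simulated with less spread between replicates than the data had, so that run does not show how the tests perform here. TMM factors were 1.25, 1.10 and 1.09 in AlkAniline-Seq and 0.987, 0.655 and 1.04 in input.

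None of the gene IDs could be named from the reference table. Of 238 symbols in the study's supplement, 115 were tied to 1 ID by their fold values, for which deposited shMETTL1 ratios were read for identity only. The members and lists were chosen with earlier results of these data known. Named are, per list, the members with the largest and smallest fold change and the most reads. PSAT1, WARS, CDKN1A, PCK2 and further list members were added as examples after their values were seen. Also named are the called genes with a name and at most 2 unnamed IDs per direction.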

Additional observations from a re-analysis of the deposited data

How the results depend on the processing

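The top 1% of positions held less of the reads in AlkAniline-Seq under all 9 alternatives run. Where other results turned or moved, the cause was not tested, apart from moves that a rule itself forces. Reads over coverage differed by -0.95 percentage points as the mean fraction over covered positions and by -0.30 over positions covered in all 6 libraries. Leaving out 1 library gave differences of -10758 to 28839 positions at a fixed number of reads, -483 to 516 gene IDs and -12.5 to 5.47 percentage points at the highest position.

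Gene IDs called numbered 316 with DESeq2, 9 with its size factors, 230 with no filter, 140 with summed coverage, 0 without each ID's highest position and 24 to 165 without 1 library. Positions called by reads numbered 1444, 3 and 16 under the first 3 of these, 169 with at least 10 reads in every library, 37 without both libraries of replicate 1 and 23 to 515 without 1 library. Positions called by share numbered 0 with a coverage of at least 20, with limma and without both libraries of replicate 1, and 0 to 17 without 1 library. The 0.01 added to each share for limma flattens low shares such as most of those called, so that 0 is a weak check. Positions high in AlkAniline-Seq and low in input numbered 1 and 0 at a coverage of 20 and 50, 24 at shares of at least 0.3 against at most 0.1, 38 at 0.2 against 0.05, 49 without both libraries of replicate 1 and 11 to 89 without 1 library. The reverse positions numbered 1 at a coverage of 50, then 47, 56, 110 and 29 to 130. Positions above 1.5-fold in all 3 replicates fell to 533 with a coverage of at least 10 and to 330 above 2-fold. The fold is the share plus 1 where the input has no read, so no such position can lie above 2-fold. The fall to 330 is thus partly built into the rule. These counts of shares and the leave-outs of whole replicate 1 for library values were chosen after seeing the data.

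Same-numbered libraries did not deviate together (correlations 0.0270, 0.00556 and -0.00666 over gene IDs), so the numbers were not taken to pair them. With a replicate block 104 gene IDs and 144 positions by reads were called, and 0 positions by share with limma, with the same limit at low shares. The block ended the call of ENSG00000185615 and turned GDF15 to -0.049, LIG1 to 0.33 and NSDHL to 0.20.

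Among named genes without a call, the log2 fold change turned sign for GARS with library size alone (0.18) and summed coverage (0.43). GDF15 turned with DESeq2 (-0.13), its size factors in edgeR (-0.13), no filter (-0.029), summed coverage (-0.028) and without the highest position (-0.42). NSDHL turned with library size alone (0.44), at least 10 reads in every library (0.22), summed coverage (0.47) and without the highest position (1.40). LIG1 (0.31) and PPAP2A (0.12) turned without the highest position. Without 1 library the ranges were -0.054 to 1.38 for ANLN, -0.18 to 0.51 for B4GALT2 (0.83 without both libraries of replicate 1), -0.23 to 0.17 for GDF15, -0.84 to 0.64 for LIG1 and -0.58 to 0.89 for NSDHL.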
